A study of Mus musculus with 6 samples.

Results

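Transcripts of 10 granulocyte and monocyte priming genes were examined in haematopoietic stem cells (HSCs). They were *Mpo*, *Elane*, *Prtn3* and *Ctsg*, which encode granule proteins, *Ms4a3* and *Ly6c2*, which encode membrane proteins, and *Cebpa*, *Cebpe*, *Spi1* and *Irf8*, which encode transcription factors. Genes were matched by symbol, and each of the 10 was found in 1 row of a table of 46959 rows. The libraries came from 3 control and 3 MaeaCsf1r-Cre samples. Each was made from about 2000 HSCs (CD150+ CD48- lineage- Sca-1+ c-kit+ cells) sorted from the bone marrow of a pair of mice 8 weeks old, and controls were littermates. In MaeaCsf1r-Cre mice floxed *Maea*, which encodes a subunit of an E3 ubiquitin ligase, is deleted by a Cre under the control of *Csf1r*, a driver classically used for mononuclear phagocytes, on a C57BL/6 background. The alleles carried by the control mice of these libraries are given only as control. The driver gene belongs to the same lineage programme as the genes examined, and its own transcript is given with the receptors. Full-length cDNA was amplified from the RNA of about 2000 cells together, so the values are those of whole sorted pools and not of single cells.

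A stem cell that still holds every blood fate already transcribes, at low level, genes of several lineages, which is known as lineage priming. In the granulocyte and monocyte direction PU.1 (encoded by *Spi1*) and C/EBPα open the programme, IRF8 favours monocytes over granulocytes, and C/EBPε acts late, when secondary granules form. Myeloperoxidase and the serine proteases neutrophil elastase, proteinase 3 and cathepsin G fill the primary granules, and their genes are among the most strongly transcribed in granulocyte-monocyte progenitors, while the sort for HSCs is set to leave such progenitors out.

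The promoters of *Mpo*, *Elane*, *Prtn3* and *Cebpa* are printed as examples. Most of the variation of *Mpo* (76.6%) and *Elane* (98.8%) followed the replicate number, less of that of *Prtn3* (36.7%) did, and *Cebpa* was the gene that kept the groups apart. *Ctsg* (92.8%) and *Ly6c2* (83.1%), which are not printed, followed the number more closely than *Mpo*. Each sequence runs from 250 bases before the RefSeq transcript start to 50 bases from it (build GRCm38.p6, read 5′ to 3′ on the strand of the gene). Capitals mark GAGGAA, the core of sites bound by PU.1, and its longer form GAGGAAGT, which overlaps it and was chosen after the sequences were read.
*Mpo*, chr11:87793534-87793833, plus strand: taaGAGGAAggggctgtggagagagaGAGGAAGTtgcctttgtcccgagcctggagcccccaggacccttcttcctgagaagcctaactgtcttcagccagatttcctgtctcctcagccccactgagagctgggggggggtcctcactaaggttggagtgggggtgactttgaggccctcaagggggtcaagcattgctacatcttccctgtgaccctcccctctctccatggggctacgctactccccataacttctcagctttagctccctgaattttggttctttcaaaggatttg
*Elane*, chr10:79886062-79886361, plus strand: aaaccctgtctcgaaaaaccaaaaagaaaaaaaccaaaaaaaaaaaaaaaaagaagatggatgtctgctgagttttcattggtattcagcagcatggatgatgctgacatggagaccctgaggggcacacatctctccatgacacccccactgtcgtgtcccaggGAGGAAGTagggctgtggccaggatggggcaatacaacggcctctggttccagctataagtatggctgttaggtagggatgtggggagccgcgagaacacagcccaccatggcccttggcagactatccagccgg
*Prtn3*, chr10:79879417-79879716, plus strand: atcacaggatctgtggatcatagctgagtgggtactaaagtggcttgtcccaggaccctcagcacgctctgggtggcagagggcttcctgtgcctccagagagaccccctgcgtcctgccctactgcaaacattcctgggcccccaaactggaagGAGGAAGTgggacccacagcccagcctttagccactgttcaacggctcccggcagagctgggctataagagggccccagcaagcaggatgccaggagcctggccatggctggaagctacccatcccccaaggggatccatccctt
*Cebpa*, chr7:35119043-35119342, plus strand: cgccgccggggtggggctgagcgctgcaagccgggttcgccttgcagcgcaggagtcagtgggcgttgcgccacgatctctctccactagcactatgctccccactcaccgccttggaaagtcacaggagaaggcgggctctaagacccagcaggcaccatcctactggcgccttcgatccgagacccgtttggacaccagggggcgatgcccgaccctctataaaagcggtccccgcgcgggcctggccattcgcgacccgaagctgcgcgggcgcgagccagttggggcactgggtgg
Of the members 8 had a promoter in the RefSeq table, and 6 of these held GAGGAA on either strand, which 28.3% of 27025 promoters of the same length did. GAGGAAGT lay in 4 of the 8 and in 3.28% of all promoters. In *Elane* it began at position -85 and in *Prtn3* at -95 from the start, and in *Mpo* at -224. *Ly6c2* also held it, at -108, while *Ctsg* held GAGGAA, at -216, without the longer form. The promoters of *Cebpa* and *Irf8* held neither form. TTGCNNAA, a C/EBP motif, was searched on both strands and lay in *Ms4a3* alone among the 8, against 10.75% of all promoters. These are matches of letters in a window and not sites shown to be bound. Their part in the patterns over replicate numbers was not tested.

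*Maea* itself was at 108, 116 and 123 CPM (read counts scaled to a common library size) in control replicates 1, 2 and 3 and at 76.9, 88.6 and 101 CPM in MaeaCsf1r-Cre replicates 1, 2 and 3, so every MaeaCsf1r-Cre library lay below every control library, in reads counted over the whole gene. The paper reports efficient deletion in haematopoietic stem and progenitor cells, from flow cytometry of the protein and PCR of genomic DNA, which these reads do not measure. Between 32968000 and 39614000 reads stood behind the scaling of a control library and between 44159000 and 60937000 behind that of a MaeaCsf1r-Cre library, so that 3 reads, the floor used here, came to 0.0492 to 0.0910 CPM (counting error only). Libraries with the same replicate number resembled each other. The libraries numbered 1 and those numbered 3 stood apart in several of the genes described below, in both genotypes, and the numbers are therefore given with the values.

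*Mpo*, which encodes the haem enzyme that makes hypochlorous acid in primary granules, was at 181, 96.8 and 26.4 CPM in control replicates 1, 2 and 3. In MaeaCsf1r-Cre replicates 1, 2 and 3 it was at 90.4, 51.7 and 3.77 CPM. In both genotypes the library numbered 1 was the highest and that numbered 3 the lowest, the groups overlapped, and within each number the MaeaCsf1r-Cre library was the lower. Control was 2.0, 1.87 and 7.01 times MaeaCsf1r-Cre in the pairs numbered 1, 2 and 3. The mean was 101 ± 77.4 CPM in control and 48.6 ± 43.4 CPM in MaeaCsf1r-Cre HSCs (SD, n = 3 each), and the log2 fold change of CPM + 1, the scale of every fold change here, was -1.47 (SE, the standard error of the fit, 1.10, adjusted p = 0.967 from limma over all genes tested). With the replicate number as a block the SE was 0.29, the unadjusted limma p 0.00141 and the adjusted p 0.198. The log2 fold change was -0.18 without MaeaCsf1r-Cre replicate 3, -0.87 without control replicate 1 and -2.31 without MaeaCsf1r-Cre replicate 1, so its size rested on single libraries. In pools of cells, fewer cells that carry a transcript and less of it in each cell cannot be told apart, which holds for every gene below.

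*Elane*, which encodes neutrophil elastase, had the widest fold range of the 10. It was at 36.9, 6.82 and 0.0293 CPM in control replicates 1, 2 and 3, the last being 1 read. In MaeaCsf1r-Cre replicates 1, 2 and 3 it was at 22.1, 6.82 and 0.203 CPM, the last being 9 reads. Libraries of the same number lay close together, while the highest was at least 421-fold above the lowest, with the lowest set at 3 reads. The share of the squared deviations of log2(CPM + 1) that lay between replicate numbers was 98.8%, and 0.175% lay between the groups. The log2 fold change was -0.16 (SE 1.4), and with the block its 95% interval ran from -0.69 to 0.37, so that smaller differences in either direction remain possible. With a pseudocount of 0.1 in place of 1 the sign turned, to 0.16.

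*Ctsg*, which encodes cathepsin G, was at 9.52, 1.94 and 0.117 CPM in control replicates 1, 2 and 3, the last being 4 reads. In MaeaCsf1r-Cre replicates 1, 2 and 3 it was at 8.09 and 6.02 CPM and listed at 0. Again the libraries numbered 1 were the highest and those numbered 3 the lowest of their group, and 92.8% of the squared deviations lay between numbers. The log2 fold change was 0.29 (SE 1.0, adjusted p = 0.981 from limma), and it was -0.48 without control replicate 3, -0.30 without MaeaCsf1r-Cre replicate 1 and -0.11 without MaeaCsf1r-Cre replicate 2.

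*Prtn3*, which encodes proteinase 3, behaved otherwise. It was at 73.8, 86.6 and 48.9 CPM in control replicates 1, 2 and 3 and at 41.8, 72.6 and 71.5 CPM in MaeaCsf1r-Cre replicates 1, 2 and 3. The highest library was 2.07-fold above the lowest, and the libraries numbered 3 were not the lowest throughout. The mean was 69.8 ± 19.2 CPM in control and 62.0 ± 17.5 CPM in MaeaCsf1r-Cre HSCs (SD, n = 3 each), and the log2 fold change was -0.17 (SE 0.27, adjusted p = 0.969 from limma). The sign turned without MaeaCsf1r-Cre replicate 1, to 0.084, and without control replicate 2, to 0.00066.

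*Prtn3* and *Elane* are neighbours. In the annotation of mm10 *Prtn3* lies on chromosome 10 from 79874476 to 79883174 and *Elane* from 79886247 to 79888215, both on the plus strand and 3072 bases apart. Their aligned transcripts were 66.8% identical and shared no run of 50 bases, so reads of that length from the pair should be told apart. On the scale of CPM per kilobase of exon *Elane* stood at 88.0% of *Prtn3* in control replicate 1 and at 92.9% in MaeaCsf1r-Cre replicate 1. It stood at 13.9% and 16.5% in control and MaeaCsf1r-Cre replicate 2. It stood at 0.50% in MaeaCsf1r-Cre replicate 3 (9 reads of *Elane*) and was under the floor in control replicate 3. The size of these percentages depends on the length taken. All exons of *Prtn3* came to 1732 bases and its longest coding transcript to 1025, while *Elane* had 984 by both. *Prtn3* also shares 159 exonic bases with *Plppr3* on the opposite strand. The balance of the neighbours was alike in libraries of the same number and unlike between numbers, a description that was not tested. *Prtn3* made up 24.5 to 64.8% of the summed CPM of the 4 granule genes in control libraries and 25.8 to 94.7% in MaeaCsf1r-Cre libraries.

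**Figure D1:**
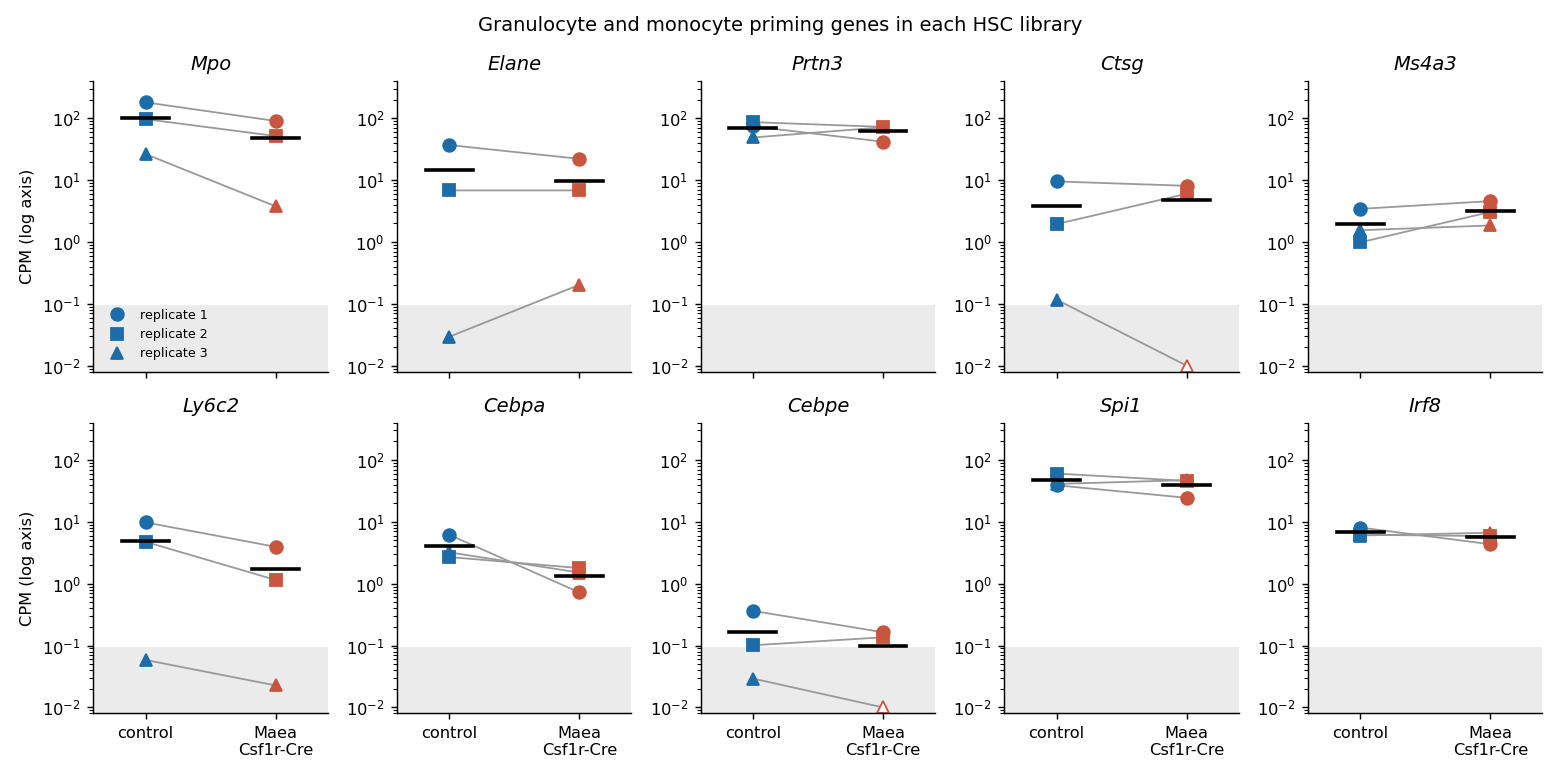
CPM of each of the 10 genes (log axis) in control (blue) and MaeaCsf1r-Cre (red) HSC libraries, with circles, squares and triangles for replicates 1, 2 and 3, grey lines joining libraries of the same number and black bars at the group means. The grey band ends at 0.0910 CPM, the highest value that 3 reads had in a library, and open symbols mark values listed at 0. *Mpo* runs from 3.77 to 181 CPM with the triangles lowest in both groups, *Prtn3* stays between 41.8 and 86.6 CPM, and *Cebpa* has every control library above every MaeaCsf1r-Cre library.

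*Ly6c2*, which encodes the Ly6C antigen of monocytes, was at 9.80, 4.76 and 0.0585 CPM in control replicates 1, 2 and 3, the last being 2 reads. It was at 3.95, 1.15 and 0.0227 CPM in MaeaCsf1r-Cre replicates 1, 2 and 3, the last being 1 read. Both libraries numbered 3 were under the floor, and in the pairs numbered 1 and 2 control was 2.48 and 4.14 times MaeaCsf1r-Cre. The log2 fold change was -0.87 (SE 0.87, adjusted p = 0.967 from limma, unadjusted p = 0.0197 and adjusted p = 0.281 with the block), and it was -0.16 without control replicate 1, -0.31 without MaeaCsf1r-Cre replicate 3 and -1.83 without control replicate 3. *Ly6c1*, a close relative on the same chromosome, was at 0.341 to 0.638 CPM in the 6 libraries. Its transcript was 97.6% identical to that of *Ly6c2* over 822 bases, so reads could have been split between the pair and the values of both are uncertain.

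*Ms4a3*, which encodes a membrane protein of granulocyte-monocyte progenitors, ran the other way. It was at 3.43, 0.985 and 1.55 CPM in control replicates 1, 2 and 3 and at 4.58, 3.06 and 1.85 CPM in MaeaCsf1r-Cre replicates 1, 2 and 3. The MaeaCsf1r-Cre library was the higher within each number, though the groups overlapped. The mean was 1.99 ± 1.28 CPM in control and 3.16 ± 1.37 CPM in MaeaCsf1r-Cre HSCs (SD, n = 3 each), and the log2 fold change was 0.51 (SE 0.37, adjusted p = 0.967 from limma, 0.390 with the block). It was 0.26 without control replicate 2, 0.27 without MaeaCsf1r-Cre replicate 1 and 0.83 without control replicate 1. *Ms4a3* lies on chromosome 19 from 11629496 to 11640851.

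*Cebpa* encodes C/EBPα, without which granulocyte-monocyte progenitors do not form. It was at 6.19, 2.70 and 3.21 CPM in control replicates 1, 2 and 3 and at 0.722, 1.79 and 1.51 CPM in MaeaCsf1r-Cre replicates 1, 2 and 3. Every MaeaCsf1r-Cre library lay below every control library, which held for no other of the 9 genes tested and for 785 of the 12955 genes tested in all (6.06%). The values rested on 107 to 204 reads in control and 44 to 79 reads in MaeaCsf1r-Cre libraries. The mean was 4.03 ± 1.88 CPM in control and 1.34 ± 0.554 CPM in MaeaCsf1r-Cre HSCs (SD, n = 3 each), and the log2 fold change was -1.07 (SE 0.32, 95% interval -1.82 to -0.33). The unadjusted limma p was 0.0107 and the adjusted p 0.967, or 0.0125 and 0.266 with the block, so the difference did not pass the test over all genes. Only 0.802% of the squared deviations lay between replicate numbers and 68.7% between the groups, the reverse of *Elane*. The pair numbered 1 differed most, with control at 8.57 times MaeaCsf1r-Cre, against 1.51 and 2.12 times in the others. *Cebpa* has 1 exon, on chromosome 7 from 35119293 to 35121928, and an antisense gene covers 51 of its bases.

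*Spi1*, which encodes PU.1, was at 39.0, 60.4 and 41.0 CPM in control replicates 1, 2 and 3 and at 24.5, 45.9 and 47.3 CPM in MaeaCsf1r-Cre replicates 1, 2 and 3. *Irf8* was at 8.10, 6.18 and 6.02 CPM in control and at 4.35, 5.89 and 6.68 CPM in MaeaCsf1r-Cre replicates 1, 2 and 3. For both the MaeaCsf1r-Cre library was the lower in the pairs numbered 1 and 2 and the higher in the pair numbered 3, and the groups overlapped. The log2 fold change of *Spi1* was -0.28 (SE 0.28), and it was 0.021 without MaeaCsf1r-Cre replicate 1. That of *Irf8* was -0.23 (SE 0.22), with a 95% interval from -0.75 to 0.28, and it was -0.085 without MaeaCsf1r-Cre replicate 1, -0.11 without control replicate 1 and -0.051 after quantile normalization. The adjusted limma p was 0.967 for each.

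*Cebpe* was close to the floor. It had 12, 4 and 1 reads in control replicates 1, 2 and 3 and 10, 6 and 0 reads in MaeaCsf1r-Cre replicates 1, 2 and 3, at most 0.364 CPM, and was not tested because no library reached 1 CPM. A difference between the groups was not detectable at this depth.

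Per kilobase of exon the order of the mean levels was led by *Prtn3*, at 40.3 ± 11.1 CPM per kilobase in control and 35.8 ± 10.1 in MaeaCsf1r-Cre HSCs (SD, n = 3 each). *Mpo* stood next in control, at 29.6 ± 22.6 against 17.4 ± 4.38 for *Spi1*, and just under *Spi1* in MaeaCsf1r-Cre HSCs, at 14.2 ± 12.7 against 14.6 ± 4.75 (SD, n = 3 each). *Elane* followed, at 14.8 ± 20.0 and 9.85 ± 11.4 (SD, n = 3 each), and *Mpo*, *Spi1* and *Elane* differed by less than their spread. *Ly6c2*, *Cebpa*, *Ms4a3* and *Irf8* had means from 0.509 to 1.78 CPM per kilobase over both groups, and *Cebpe* was the lowest in each. The lengths count every exon of a gene, so the order depends on them. For *Ly6c2* they came to 2740 bases, against 822 in its longest coding transcript.

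**Figure D2:**
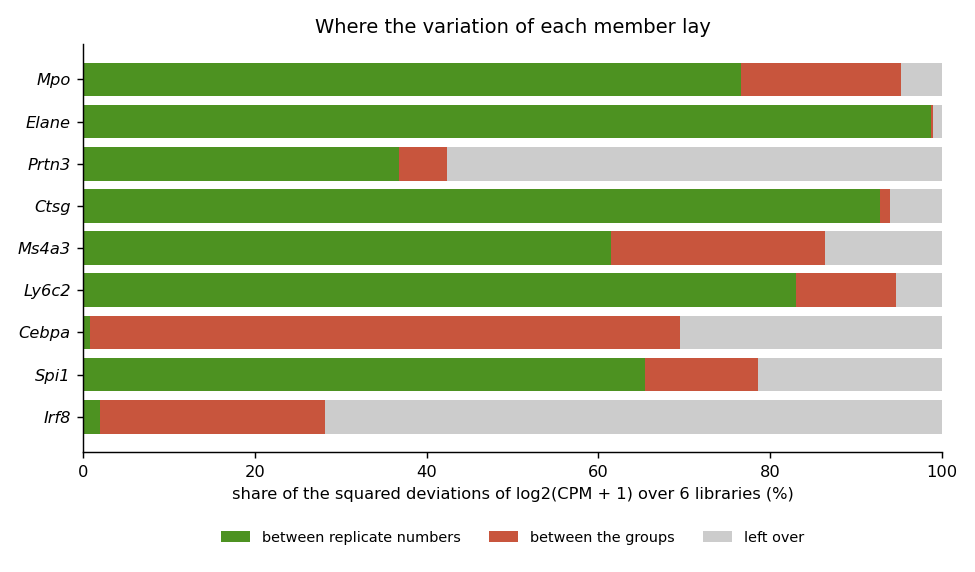
Share of the squared deviations of log2(CPM + 1) over the 6 libraries (%) that lay between replicate numbers (green), between the groups (red) and in neither (grey), for the 9 genes tested. *Elane* (98.8%), *Ctsg* (92.8%), *Ly6c2* (83.1%) and *Mpo* (76.6%) are mostly green, and *Cebpa* is mostly red (68.7%).

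Over the genes, the variation that followed the replicate number was 98.8% for *Elane*, 92.8% for *Ctsg*, 83.1% for *Ly6c2* and 76.6% for *Mpo*. It was 65.4% for *Spi1*, 61.5% for *Ms4a3* and 36.7% for *Prtn3*, and 1.99% for *Irf8* and 0.802% for *Cebpa*. The median over all 12955 genes tested was 58.8% between numbers and 12.8% between groups. Thus 6 of the 9 lay above the median gene and 3 below it, and no test was made of this. *Cd48*, which marks the progenitors that the CD48- gate leaves out, was at 33.5, 19.4 and 12.4 CPM in control replicates 1, 2 and 3 and at 46.5, 22.1 and 15.8 CPM in MaeaCsf1r-Cre replicates 1, 2 and 3. Like *Mpo*, *Elane*, *Ctsg* and *Ly6c2*, it was highest in the libraries numbered 1 and lowest in those numbered 3. The other 3 progenitor markers read did not follow this order. *Flt3* was at 67.2, 120 and 34.4 CPM in control and 15.7, 33.7 and 37.0 CPM in MaeaCsf1r-Cre replicates 1, 2 and 3, and *Cd34* and *Cd27*, too, were highest in control replicate 2 and lowest in MaeaCsf1r-Cre replicate 1. *Slamf1*, which encodes the CD150 that HSCs were sorted for, was at 13.1, 19.6 and 35.1 CPM in control and 15.9, 26.6 and 31.5 CPM in MaeaCsf1r-Cre replicates 1, 2 and 3, and *Ctnnal1*, another HSC marker, at 10.5, 15.3 and 41.6 CPM and 11.0, 15.4 and 28.5 CPM. Both were in the opposite order to *Cd48*. The part of these markers in the values of *Mpo*, *Elane*, *Ctsg* and *Ly6c2* was not tested.

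**Figure D3:**
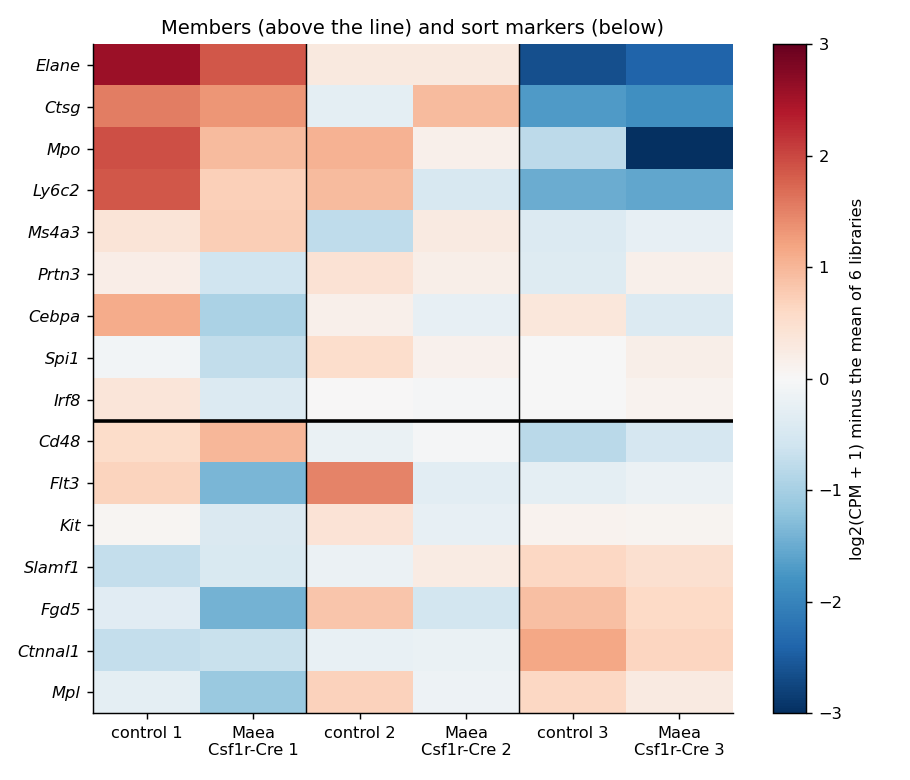
log2(CPM + 1) minus the mean of the 6 libraries for the 9 genes tested (above the line) and for genes that mark HSCs or progenitors (below it), with libraries of the same replicate number side by side. *Elane*, *Ctsg*, *Mpo* and *Ly6c2* are red in both libraries numbered 1 and blue in both numbered 3, as *Cd48* is, and *Slamf1* and *Ctnnal1* show the opposite order.

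Among the genes whose profile over the 6 libraries was most like the mean profile of the 4 granule genes were *Gm9825*, *Prss41*, *Gm4759* and *Gm11505*. Their root mean square differences from it on the log2 scale were 0.533, 0.565, 0.654 and 0.714, against a median of 1.26 over all genes tested. *Prss41*, a serine protease gene, was at 6.64, 4.95 and 0.789 CPM in control replicates 1, 2 and 3 and at 2.23, 5.98 and 0.135 CPM in MaeaCsf1r-Cre replicates 1, 2 and 3. *Gm11505* lies antisense to *Mpo* (chromosome 11, 87793581 to 87804413) and shares 512 exonic bases with it, 14.95% of the exonic length of *Mpo*. The libraries did not keep the strand, so reads of the pair cannot be told apart there.

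The question put to the whole group was whether transcripts of the granulocyte and monocyte programme differed between MaeaCsf1r-Cre and control HSCs. Of the 9 genes tested 7 had a lower mean in MaeaCsf1r-Cre HSCs and 2, *Ctsg* and *Ms4a3*, a higher one. None passed an adjusted p of 0.05 with limma in either fit, where 1 of 12955 genes did in each (0.00772%), the gene being *BC023719*, named after its value was seen. At an unadjusted p under 0.05 there was 1 of the 9, *Cebpa*, against 3.99% of all genes tested. With the block there were 3, *Mpo*, *Ly6c2* and *Cebpa*, against 13.9%. These 3 were also the genes that were lower in MaeaCsf1r-Cre HSCs in all 3 pairs, as 23.5% of all genes were, and *Ms4a3* was higher in all 3 pairs, as 13.2% were. Counts of 1 to 3 among 9 genes were not tested against these shares, and none is a result about the group. The median log2 fold change of the 9 was -0.23, and that of all genes tested -0.06, with 5060 genes higher and 7895 lower. After rescaling by median ratios 6481 were higher and 6474 lower, and the 9 genes were still divided into 2 higher and 7 lower.

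**Figure D4:**
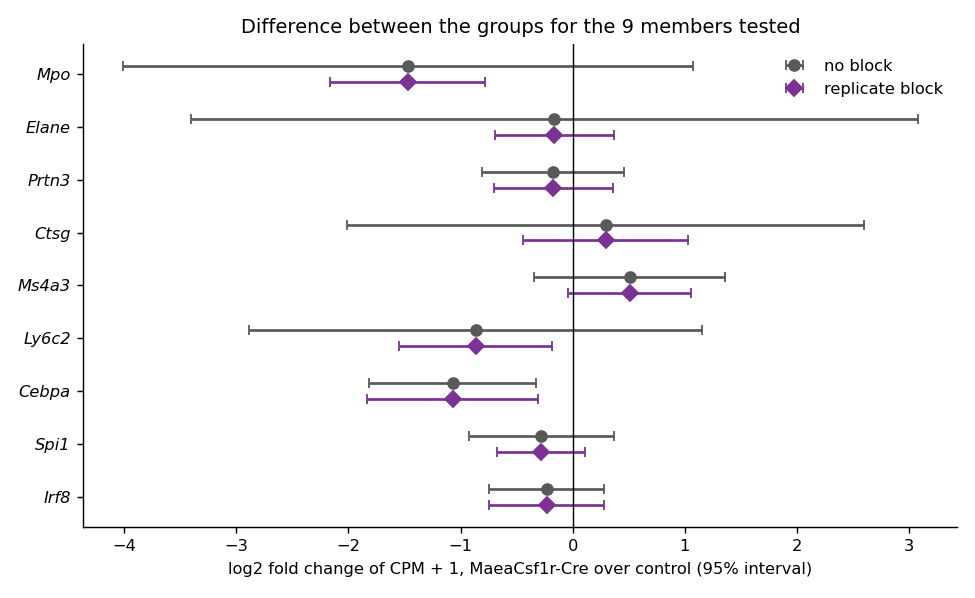
log2 fold change of CPM + 1, MaeaCsf1r-Cre over control, for the 9 genes tested, with 95% intervals from limma without (grey) and with (purple) the replicate number as a block. The intervals of *Mpo* run from -4.01 to 1.07 and from -2.16 to -0.78, while those of *Cebpa*, -1.82 to -0.33 and -1.83 to -0.31, have nearly the same width in both fits.

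Around these genes 66 others of the same lineages were read, of which 41 were tested. Of the 41, 33 had a lower and 8 a higher mean in MaeaCsf1r-Cre HSCs, the median log2 fold change was -0.24, and none passed the test over all genes in either fit. At an unadjusted limma p under 0.05 there were 2 higher and 8 lower, against 3.99% of all genes tested, and 2 and 11 with the block, against 13.9%. In 9 the groups did not overlap with MaeaCsf1r-Cre HSCs lower, against 6.06% of all genes. None of these counts was tested against its background.

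Genes that process granule proteins or hold them in check had the median nearest 0. The 7 were all tested, 3 higher and 4 lower, with a median log2 fold change of -0.03. *Ctsc*, whose product cathepsin C activates the granule proteases, was at 50.4, 93.2 and 79.1 CPM in control and 49, 78.6 and 68.0 CPM in MaeaCsf1r-Cre replicates 1, 2 and 3 (log2 fold change -0.17, SE 0.26). *Cd63*, a granule membrane gene, had a log2 fold change of -0.30 and *Prss57*, a neighbour of *Prtn3* that encodes another granule protease, of -0.24 (SEs 0.30 and 0.25). *Ctsc* was lowest in the libraries numbered 1, where *Mpo* was highest.

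Of 15 late granulocyte genes only 3 were tested, and all 3 had a lower mean in MaeaCsf1r-Cre HSCs. *Lyz2*, which encodes lysozyme, was at 181, 296 and 256 CPM in control and 106, 199 and 239 CPM in MaeaCsf1r-Cre replicates 1, 2 and 3, the lower in each pair (log2 fold change -0.48, SE 0.31). *Pglyrp1*, which encodes a peptidoglycan recognition protein, was at 3.91, 6.77 and 4.59 CPM in control and 1.13, 2.47 and 3.83 CPM in MaeaCsf1r-Cre replicates 1, 2 and 3, without overlap (-0.86, SE 0.34). *Itgam*, the CD11b gene, had a log2 fold change of -0.48 (SE 0.25). The secondary granule genes *Ltf*, *Camp* and *Ngp* stayed below 1 CPM in every library, and *Mmp8* was listed at 0 in all 6. *Retnlg*, also not tested, was at 7.04 CPM (232 reads) in control replicate 1 and had at most 5 reads in any other library. *S100a8* was at 1.48 CPM in MaeaCsf1r-Cre replicate 1 and below 1 CPM in the others.

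Among 9 receptor genes 7 were tested, 1 higher and 6 lower. *Csf2rb*, which encodes the common β chain of the receptors for GM-CSF, IL-3 and IL-5, was at 19.9, 23.8 and 18.5 CPM in control and 41.2, 60.7 and 36.5 CPM in MaeaCsf1r-Cre replicates 1, 2 and 3, so that every MaeaCsf1r-Cre library lay above all of the controls. The log2 fold change was 1.09 (SE 0.21), and its adjusted limma p of 0.713, or 0.0619 with the block, was the lowest of the 41 genes in each fit. *Csf1r*, the M-CSF receptor gene whose regulatory sequence drives the Cre, was at 7.89, 3.39 and 2.31 CPM in control and 0.369, 2.18 and 0.141 CPM in MaeaCsf1r-Cre replicates 1, 2 and 3 (-1.57, SE 0.49). It falls outside the rule for named genes and was added because it is the driver. *Clec12a*, an inhibitory lectin receptor gene, was at 4.37, 3.66 and 1.64 CPM in control and 1.48, 0.385 and 0.293 CPM in MaeaCsf1r-Cre replicates 1, 2 and 3 (-1.30, SE 0.37), and *Il6ra*, the IL-6 receptor gene, had a log2 fold change of -0.90 (SE 0.25), without overlap between groups in either gene.

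Of 16 partner transcription factors 13 were tested, 2 higher and 11 lower, with a median log2 fold change of -0.18. *Irf5* was at 14.1, 20.2 and 15.7 CPM in control and 4.61, 10.2 and 12.4 CPM in MaeaCsf1r-Cre replicates 1, 2 and 3, without overlap (-0.89, SE 0.33). *Cebpg*, a C/EBP gene near *Cebpa*, had a log2 fold change of -0.22 (SE 0.12), also without overlap, and *Cebpd* of 0.49 (SE 0.33).

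Of 12 monocyte genes 5 were tested, 1 higher and 4 lower. *Lgals3*, the galectin-3 gene, was at 1.61, 1.46 and 1.37 CPM in control and 0.0986, 0.340 and 0.338 CPM in MaeaCsf1r-Cre replicates 1, 2 and 3 (-0.98, SE 0.22), while *Fn1* and *S100a4* had log2 fold changes of -0.26 and 0.24 (SEs 0.34 and 0.36). Of 7 progenitor stage genes 6 were tested, 1 higher and 5 lower. *Hk3*, a myeloid hexokinase gene, was at 29.6, 26.4 and 15.0 CPM in control and 5.74, 10 and 11.7 CPM in MaeaCsf1r-Cre replicates 1, 2 and 3 (-1.28, SE 0.32). *Emb*, which encodes a membrane glycoprotein, had a log2 fold change of -0.86 (SE 0.29). *Plac8* was the one above control, at 87.9, 59.9 and 53.0 CPM in control and 132, 117 and 72.6 CPM in MaeaCsf1r-Cre replicates 1, 2 and 3 (0.66, SE 0.26), higher within each pair.

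**Figure D5:**
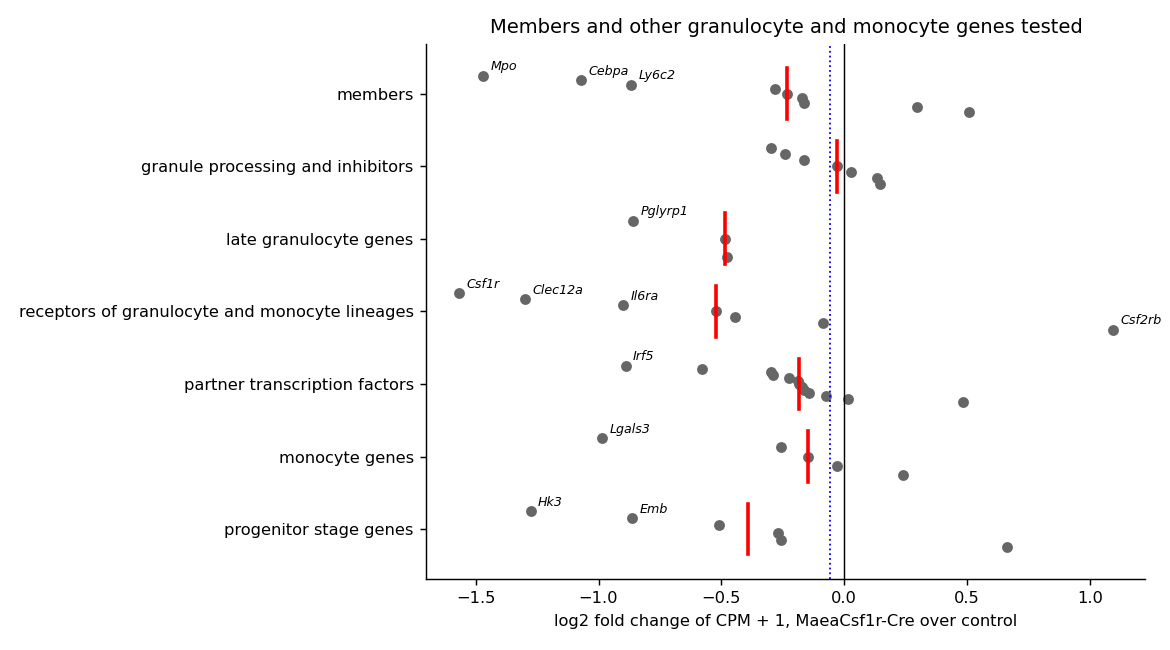
log2 fold change of CPM + 1, MaeaCsf1r-Cre over control, of each gene tested (dots) in the group examined and in 6 lists of related genes, with red bars at the list medians, a dotted line at the median of all genes (-0.06) and a solid line at 0. *Csf2rb* (1.09) lies far to the right of the other receptor genes, and the medians of all 7 lists are below 0.

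Macrophage markers mostly had a lower mean in MaeaCsf1r-Cre HSCs. Of 14 such genes 9 were tested, 8 of them with a lower mean and none past the adjusted threshold (lowest adjusted limma p 0.194, 0.0615 with the block). The summed level of the 14 was 152, 63.2 and 112.7 CPM in control and 77.4, 39.7 and 113.4 CPM in MaeaCsf1r-Cre replicates 1, 2 and 3. The sum was thus lower in the pairs numbered 1 and 2 and not in the pair numbered 3. In that pair it rested largely on *Slc40a1*, at 37.0 CPM in control and 53.3 CPM in MaeaCsf1r-Cre, and *Vcam1*, at 26.7 and 30.0 CPM. Of the 9 tested, 5 (*C1qa*, *C1qb*, *C1qc*, *Axl* and *Spic*) were lower in all 3 pairs, as 23.5% of all genes tested were. *C1qb* was at 8.98, 3.79 and 5.37 CPM in control and 0.0329 CPM, listed at 0 and 0.474 CPM in MaeaCsf1r-Cre replicates 1, 2 and 3. The part of such markers in the values of genes that macrophages also express, such as *Cebpa*, *Csf1r*, *Lgals3*, *Lyz2* and *Spi1*, was not tested. Of 9 B cell markers 2 were tested. *Ighm*, the immunoglobulin heavy chain gene, was at 16.9, 29.5 and 7.51 CPM in control and 0.279, 0.838 and 2.26 CPM in MaeaCsf1r-Cre replicates 1, 2 and 3, without overlap (adjusted limma p 0.489, 0.141 with the block), and *Cd79b* was at 12.9 to 27.2 CPM, while *Ms4a1*, *Pax5* and *Igll1* were listed at 0 in all 6 libraries. Of 9 T and NK cell markers 4 were tested, among them *Nkg7* at 38.7 to 85.4 CPM and *Lck* at 6.60 to 13.2 CPM, and *Cd3g*, *Cd8a* and *Gzma* were listed at 0 throughout, as *Siglech* and *Cd209a* of dendritic cells were. Erythroid and megakaryocyte genes were high, with *Car1* at 3356, 1210 and 617 CPM in control and 3645, 1402 and 1486 CPM in MaeaCsf1r-Cre replicates 1, 2 and 3, and *Pf4* at 38.8 to 507 CPM. *Car1*, like *Mpo*, was highest in the library numbered 1 of each group. The part of these markers in the values of the 10 genes was not tested. The HSC marker *Kit* was at 393 to 700 CPM. Of the 10 HSC markers, all tested, 2 had a higher and 8 a lower mean in MaeaCsf1r-Cre HSCs, with a median log2 fold change of -0.47. Of 4 progenitor markers 1 was higher and 3 lower (median -0.36). Both medians lay below the -0.23 of the 9 genes examined. The 7 erythroid markers tested were divided into 5 higher and 2 lower (median 0.39). No marker of these 3 lists passed the test over all genes in either fit.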

How the data were processed

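RNA from sorted HSCs of 3 control and 3 MaeaCsf1r-Cre samples was read as 1 table. SMART-Seq v4 cDNA was made into Nextera XT libraries by the authors and sequenced single-end. STAR 2.5.3a placed the reads on mm10, and Partek Flow quantified them against Ensembl transcripts and scaled them (the processing notes also name Trim Galore). The deposited values are CPM with 0.0001 added. At low values 75.2 to 76.7% lay within 0.05 of a whole read, so a full table of whole counts was not recovered and no count test was run. Reads given for a gene are its CPM divided by the CPM of 1 read in that library, which was estimated from the low values. As deposited, 27 symbols had become dates, and 4 rows shared a symbol.

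The 12955 genes that reached a CPM of 1 in 3 or more libraries entered a test of log2(CPM + 1) with limma 3.58.1 in R 4.3.3 (mean-variance trend, two-sided, Benjamini-Hochberg adjustment over all genes tested, threshold 0.05), with no block. Replicate numbers come from the labels. Deviations from the group means correlated across genes within each number (r of 0.627, 0.523 and 0.397, all over 0.1), so the number was also fitted as a block. The sources do not state separate litters or days, so p-values measure the spread between these pools. The procedure was tested on simulated data. Their noise was kept below the spread of most of the genes examined and had no effect of the replicate number, so that test does not cover such spread. Alternatives were a pseudocount of 0.1, no filter, a CPM of at least 10, median ratio scaling, quantile normalization, no trend and each library left out.

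The members and lists were chosen with earlier results of these data known. Named genes were the members, up to 3 genes of each list with the smallest limma p, *Ly6c1*, *Prss57* and the 5 genes outside the lists most like the granule genes in profile, of which 1 is not reported here. Gene positions and exon lengths came from GENCODE M21 (GRCm38), a later annotation than the one the authors used, and promoters from RefSeq (GRCm38.p6). Figures and tables were made with Python 3.11.15. LMPPs were not analysed here.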

Additional observations from a re-analysis of the deposited data

How the results depend on the processing

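No member passed the adjusted threshold under any alternative, and the lowest adjusted limma p of a member over all of them was 0.198 (*Mpo*, replicate block), against 0.967 without the block. The replicate block changed no call and left the count of genes called at 1, while genes at an unadjusted limma p under 0.05 went from 517 to 1805. With a CPM of at least 10 no gene was called with limma (302 at an unadjusted p under 0.05), 0 members had groups that did not overlap and *Cebpa* was not tested. When each library was left out in turn, genes called ranged from 0 (without control replicate 2 or 3) to 3 (without MaeaCsf1r-Cre replicate 3: *BC023719*, *Hmox1* and *Rps18-ps3*), and members without overlap from 1 to 4, the 4 being *Mpo*, *Prtn3*, *Ly6c2* and *Cebpa* without control replicate 3. With fewer libraries, groups lie apart more easily. The share of all genes tested without overlap was not taken under these settings, so these counts are not a result about the members. Over the same settings the member median stayed below 0, from -0.48 to -0.0857. Of the 9 genes tested 5 kept their direction under every alternative run and 4 did not. *Elane* was at 0.16 with a pseudocount of 0.1, and at 0.16 with that and the replicate block, an alternative chosen after seeing the data. With libraries left out *Elane* ran from -1.52 to 1.08, *Ctsg* from -0.48 to 1.29, *Prtn3* from -0.41 to 0.084 and *Spi1* from -0.44 to 0.021. The cause was not tested. Where a library was left out, 3 libraries were compared with 2. *Cebpe* in all libraries, and *Ly6c2*, *Elane* and *Ctsg* in both libraries numbered 3, rested on 12 reads or fewer, which limits what can be said of them.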

Other observations

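Basophil and mast cell genes at the loci of these genes, or of the same granule class, were read as well. *Fcer1a*, the α chain of the high-affinity IgE receptor, was at 0.880, 0.379 and 0.584 CPM in control and 4.91, 4.08 and 1.22 CPM in MaeaCsf1r-Cre replicates 1, 2 and 3, with every MaeaCsf1r-Cre library above every control library (log2 fold change 1.34, standard error 0.38, adjusted limma p 0.967, 0.216 with the replicate block). *Gzmb* and *Mcpt8*, which lie in the cluster of granule proteases that holds *Ctsg*, were not tested because too few libraries reached 1 CPM. *Gzmb* was at 0.698 and 0.303 CPM and listed at 0 in control and at 5.14, 0.883 and 0.0678 CPM in MaeaCsf1r-Cre replicates 1, 2 and 3. *Mcpt8* was at 0.0608 and 0.177 CPM and listed at 0 in control and at 2.26 and 0.340 CPM and listed at 0 in MaeaCsf1r-Cre replicates 1, 2 and 3. *Ms4a2*, a neighbour of *Ms4a3* that encodes the β chain of the IgE receptor, was at 0.485, 0.0253 and 0.146 CPM in control and 1.92, 0.476 and 0.158 CPM in MaeaCsf1r-Cre replicates 1, 2 and 3. These genes were named after their values were seen. The other genes tested from the list of eosinophil, basophil and mast cell markers were *Cpa3* and *Gata1*. *Cpa3* was at 4.64, 4.37 and 4.12 CPM in control and 9.68, 6.68 and 2.73 CPM in MaeaCsf1r-Cre replicates 1, 2 and 3. Its groups overlapped, and MaeaCsf1r-Cre was the lower in the pair numbered 3 (log2 fold change 0.33, standard error 0.37). The groups of *Gata1* overlapped too (log2 fold change 0.46, standard error 0.32). *Prg2*, an eosinophil granule gene, stayed at or below 0.0903 CPM, and *Epx* and *Prg3* were listed at 0 in all 6 libraries.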
